A study of Homo sapiens with 18 samples.

Results

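The mitotic machinery was followed through 60 genes of the mitotic spindle, the kinetochore, the spindle assembly checkpoint and the anaphase-promoting complex (APC/C). The genes were taken by symbol from a fixed list whose rule uses no measured value, although the list was drawn up with earlier results of these data known, and were read by 63 of the 21111 probes in the table, since CENPM, ANAPC2 and ANAPC5 have 2 probes each. The list holds 11 probes for cyclins, CDK1 and mitotic kinases with their partners, 7 for the checkpoint, 13 for the centromere and kinetochore, 13 for spindle motors and cytokinesis, 5 for the coactivator, E2 enzymes, securin and separase of the APC/C, 12 for its core subunits and 2 for mitotic chromosomes. Expression was measured by TempO-Seq, in which a pair of detector oligonucleotides anneals side by side on a target RNA and is ligated, amplified and sequenced, which makes a value specific to the small target of its probe. The 18 libraries came from 3 established triple-negative breast cancer (TNBC) cell lines, BT549, Hs578T and SUM149PT. Cells of each line were transfected with 50 nM of a siRNA pool against ASAP1 (siASAP1) or with siCtrl, which the study's methods describe as a pool of kinase siRNAs, and were lysed 72 h later. Each of the 6 groups held 3 libraries, described as biological triplicates. No untransfected cells were analyzed here, so that each comparison is between 2 transfections. Each line is a single model, and ASAP1, an Arf GTPase-activating protein, was silenced and not deleted.

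Entry into mitosis is driven by CDK1 bound to cyclins, with the kinases PLK1, AURKA and AURKB. The kinetochore is assembled on centromeric chromatin and holds the ends of spindle microtubules, and the spindle assembly checkpoint keeps the APC/C inactive until the chromosomes are attached. Once released, the APC/C marks cyclin B and securin for destruction, separase opens the cohesin rings, and cytokinesis follows. The mRNAs of most of these genes are made late in the cell cycle, so their level in a culture rises with the share of dividing cells, and they are among the genes by which fast-growing breast tumors are known. The core subunits of the APC/C are known for steadier expression through the cell cycle.

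ASAP1 itself was lower after siASAP1 in each line by group mean. In BT549 cells its normalized read counts were 367, 729.7 and 783 after siASAP1 and 1107, 966 and 944 after siCtrl, a mean of 62.3% of siCtrl. In Hs578T cells they were 782, 825 and 1261 against 1641, 1414 and 2697, a mean of 49.9% of siCtrl. In both lines every siASAP1 library was below every siCtrl library (exact permutation test, two-sided, p = 0.1 in both lines, the smallest p that 3 against 3 allows). In SUM149PT cells they were 282, 468 and 184 against 1087, 189 and 1314, a mean of 36.1% of siCtrl, with siCtrl replicate 2 inside the siASAP1 range (exact permutation test, p = 0.3). Libraries held 4.63 to 12.5 M reads, of which the member probes took 0.334% to 0.92%. Epithelial markers such as EPCAM and KRT8 summed to 30000 to 57110 normalized counts in SUM149PT libraries and to 57.4 to 495 in BT549 and Hs578T libraries. Mesenchymal markers, VIM among them, summed to 5777 to 12010 and to 40140 to 253500 in the same libraries. Single markers did not all follow these sums. The mesenchymal marker CDH2 had means of 1843 and 1733 in SUM149PT siASAP1 and siCtrl cells, above the 600.5 and 325.3 of BT549 cells. In Hs578T cells it had 3942 and 4010. ZEB1 had a mean of at most 0.84 in any group, and the epithelial marker KRT14 had 2.56 and 0 in SUM149PT siASAP1 and siCtrl cells. Markers of blood and endothelial cells summed to at most 102.9, and 6 of their 7 probes were at 0 in each group.

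The SUM149PT siCtrl replicate 2 library stood apart in the mitotic genes as well. CDK1, the kinase that drives mitotic entry, read 78.7, 2442 and 51.2 normalized counts in SUM149PT siCtrl replicates 1, 2 and 3. CCNB1, which encodes cyclin B1, read 122, 1539 and 110.3, and the kinetochore gene CENPK read 631, 11192 and 691. In contrast, SPC24, a subunit of the NDC80 complex, read 7037, 1545 and 6640.2. Of the 52 member probes whose mean over all libraries reached 10 normalized counts, 25 were more than 1 log2 unit higher in this library than in the mean of the other SUM149PT siCtrl libraries and 10 were more than 1 lower. The transcripts of the 25 had a median GC content of 41.0% and those of the 10 a median of 56.7%, against 45.1% for the members and 48.7% for all tested probes. In this library the deviation of the 52 probes from their group mean had a Pearson r of -0.61 with transcript GC content, and over the 18 libraries r lay between -0.70 (BT549 siASAP1 replicate 1) and 0.66 (BT549 siASAP1 replicate 3 and SUM149PT siASAP1 replicate 2). The trend was not confined to the members. Over 10175 probes r was -0.36 in this library and lay between -0.46 (BT549 siASAP1 replicate 1) and 0.42 (BT549 siASAP1 replicate 3). These are descriptions across genes of the same libraries, genes are not independent replicates, and the part of base composition in the results below was not tested. The main counts over all members, and the Log2 FC of the genes that fell in SUM149PT cells, are given below with and without replicate 2. Most counts by role, the counts of signs and the values by promoter motif are given with it only, and may depend on it.

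**Figure D1:**
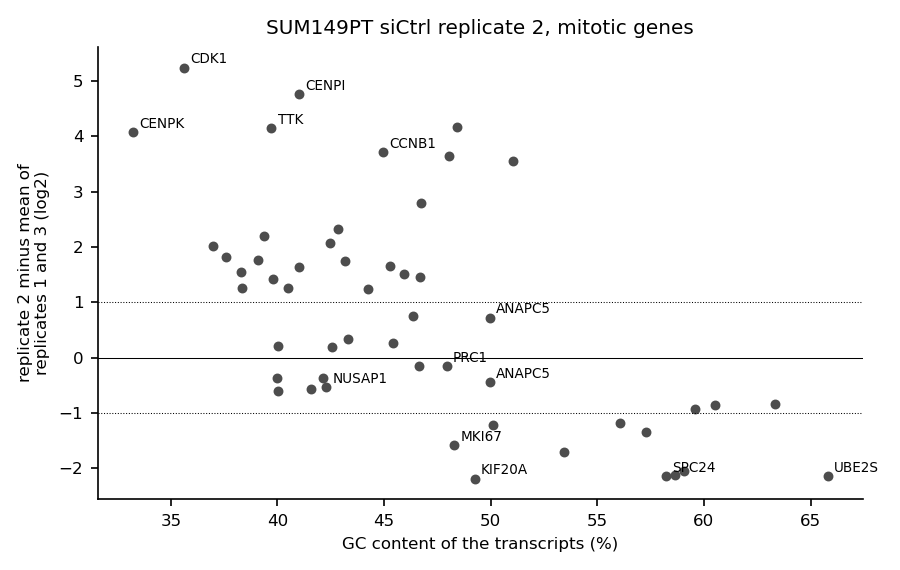
Difference of SUM149PT siCtrl replicate 2 from the mean of replicates 1 and 3 (log2) for the 52 member probes, plotted against the GC content of each gene's transcripts (%). CDK1 (5.24), CENPI (4.77) and TTK (4.15) lie at the top left, and SPC24 (-2.14) and UBE2S (-2.14) at the lower right. Dotted lines mark 1 log2 unit in each direction.

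In SUM149PT cells, 12 of the 53 member probes tested fell after ASAP1 silencing and 0 rose. A probe is said to fall or rise within a line where its unadjusted p is under 0.05 and its absolute Log2 FC, the difference of the mean log2 values (siASAP1 minus siCtrl), is over 1, which are the limits the study used for DEGs. The kinetochore genes CENPF, CENPM, CENPN, CENPH and SPC24, the spindle and cytokinesis genes NUSAP1, PRC1 and KIF4A, the cyclin gene CCNA2, the kinase gene AURKB, the checkpoint gene TRIP13 and the APC/C gene ANAPC5 made up the 12, with Log2 FC between -2.41 and -1.01. They were 22.6% of the members tested, while 4.29% of all 10078 probes tested fell and 5.27% rose. The median Log2 FC was -0.93 over the members and 0.09 over all probes, and 42 of the 53 members (79.2%) were lower, against 46.5% of all probes. No member reached an adjusted p under 0.05 (limma, Benjamini-Hochberg over all probes; smallest 0.334, with 14 members at an unadjusted p under 0.05), and no probe of the whole table did, with 1025 probes at an unadjusted p under 0.05. The cultures were measured in bulk, so that a smaller share of cells in mitosis and less mRNA in each dividing cell cannot be told apart.

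Among the kinetochore genes, 5 of 9 probes tested fell in SUM149PT cells and the median Log2 FC was -1.76. CENPF, a large protein of the outer kinetochore, read 132, 185 and 201 normalized counts after siASAP1 (replicates 1, 2 and 3, the order used throughout) and 669, 460.1 and 724 after siCtrl. The groups did not overlap, and the drop had the smallest p of the members (Log2 FC -1.83, SE 0.42, adjusted p = 0.334). CENPM, part of the constitutive centromere network, read 13.2, 10.3 and 9.2 after siASAP1 and 84.4, 41 and 67.1 after siCtrl. Every siASAP1 value lay well below every siCtrl value (Log2 FC -2.41, SE 0.68, adjusted p = 0.362). CENPN, which binds the centromeric nucleosome, read 340.0, 269 and 427 after siASAP1 and 741, 841 and 732 after siCtrl, with the 3 siCtrl libraries close together (Log2 FC -1.18, SE 0.38, adjusted p = 0.386). CENPH, another subunit of that network, read 441, 123 and 332 against 666, 2748 and 644, where the siCtrl replicate 2 value was several times that of the others (Log2 FC -2.01, SE 0.72, adjusted p = 0.424). SPC24 read 738, 2018 and 809 against 7037, 1545 and 6640.2, and here siCtrl replicate 2 fell inside the siASAP1 range (Log2 FC -1.97, SE 0.68, adjusted p = 0.418). NUF2 and SPC25, the other tested parts of the NDC80 complex, had a Log2 FC of -1.52 (SE 0.70) and -1.76 (SE 0.93) and did not pass. CENPI and CENPK, of the constitutive centromere network, had a Log2 FC of 0.61 and 0.25, with SE of 1.43 and 1.34, and siCtrl replicate 2 as the highest library of the line for both.

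Of the spindle motor and cytokinesis genes, all 13 had a negative Log2 FC in SUM149PT cells (median -0.99), 3 fell, and in 7 the groups did not overlap. NUSAP1, which bundles spindle microtubules, read 3765, 4265 and 4277 after siASAP1 and 13029, 8812 and 12504 after siCtrl. The siASAP1 libraries were nearly alike, and all lay below the siCtrl libraries (Log2 FC -1.46, SE 0.33, adjusted p = 0.334). PRC1, which crosslinks the antiparallel microtubules of the central spindle, read 517, 897 and 696 against 1676, 1606 and 1919.8, without overlap (Log2 FC -1.33, SE 0.37, adjusted p = 0.356). KIF4A, a motor that works with PRC1, was read at low counts of 10.6, 12.8 and 22.3 against 37.2, 77.4 and 55.9, also without overlap (Log2 FC -1.84, SE 0.69, adjusted p = 0.445). KIF15 (Log2 FC -0.99, SE 0.38) and KIF23 (-0.93, SE 0.37) had an unadjusted p under 0.05 but missed the limit on size. KIF11, the motor that pushes the spindle poles apart, read 1676, 683 and 1737 against 2275, 5002 and 1913 (Log2 FC -1.15, SE 0.54, adjusted p = 0.514). TPX2, which activates AURKA on the spindle, read 278, 356 and 410.0 against 568, 563 and 695 (Log2 FC -0.82, SE 0.38, adjusted p = 0.513). For KIF11 and TPX2 the groups did not overlap, but neither passed the limits.

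Of the 11 cyclin and kinase genes, 2 fell in SUM149PT cells. CCNA2, which encodes cyclin A2, read 219.6, 269 and 188 after siASAP1 and 641, 497 and 638 after siCtrl, with each siASAP1 library under 300 (Log2 FC -1.39, SE 0.39, adjusted p = 0.356). AURKB, the kinase of the chromosomal passenger complex, read 193, 276 and 243 against 719, 319.8 and 739, where siCtrl replicate 2 was much closer to the siASAP1 values than the other siCtrl libraries were (Log2 FC -1.23, SE 0.47, adjusted p = 0.453). CCNB2, which encodes cyclin B2, read 243, 73.1 and 197 against 246, 734 and 270.1 (Log2 FC -1.26, SE 0.64, adjusted p = 0.554), with no overlap but an unadjusted p over the limit. CCNB1 read 163, 64.1 and 181 against 122, 1539 and 110.3 (Log2 FC -1.14, SE 1.02, adjusted p = 0.727), and CDK1 read 192, 66.7 and 396 against 78.7, 2442 and 51.2 (Log2 FC -0.32, SE 1.40, adjusted p = 0.948), so that siCtrl replicate 2 alone lay above the siASAP1 range for both. PLK1, a kinase of mitotic entry and spindle assembly, read 25.1, 94.9 and 30.2 against 80.1, 30.1 and 126 (Log2 FC -0.68, SE 0.78, adjusted p = 0.795). AURKA, the spindle pole kinase, read 219.6, 269 and 137 against 269, 333 and 288, with siASAP1 replicate 2 at the level of siCtrl replicate 1 (Log2 FC -0.56, SE 0.44, adjusted p = 0.695). Neither gene passed the limits.

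In the checkpoint group 1 of 6 probes fell in SUM149PT cells. TRIP13, the ATPase that remodels the checkpoint protein MAD2, read 109.8, 78.2 and 151 after siASAP1 and 217, 712 and 310.1 after siCtrl, without overlap (Log2 FC -1.73, SE 0.56, adjusted p = 0.4). BUB1, a checkpoint kinase, had a Log2 FC of -0.08 (SE 0.83), and MAD2L1, which encodes MAD2, one of -0.46 (SE 0.94). The median Log2 FC was -0.26 in the checkpoint group, with 4 of 6 values negative. In the APC/C core it was 0.10 over 10 probes, with 4 negative, and 0.05 over the 8 probes that also reached the minimum mean over all 18 libraries, which leaves out ANAPC10 and CDC27, read at or near 0 in several SUM149PT libraries. Without siCtrl replicate 2 the core median was 0.62 over 9 probes, beside 0.11 over all probes. Of the 9, 2 fell (ANAPC5 and ANAPC11) and 1 rose (ANAPC7). The groups then did not overlap for 2 core probes that were lower and 4 that were higher, beside 21.4% and 23.3% of all probes. The core median thus depended on that library. The difference between groups of genes was not tested. With all libraries, ANAPC5, a scaffold subunit, was the core gene that fell. It went from 1450.2, 990.3 and 1259.6 after siCtrl to 709, 500.0 and 629 after siASAP1 (Log2 FC -1.01, SE 0.37, adjusted p = 0.436). ANAPC7 read 655, 219 and 631 against 60.1, 657 and 44.8 (Log2 FC 1.88, SE 1.01, adjusted p = 0.571), so that siCtrl replicate 2 was at the level of the siASAP1 libraries and the other siCtrl libraries were far lower. The proliferation marker MKI67 read 664, 617 and 689 against 1516, 615 and 2260.3 (Log2 FC -0.97, SE 0.52, adjusted p = 0.566), and TOP2A, the topoisomerase of mitotic chromosomes, 197, 131 and 223 against 267, 548 and 95.9 (Log2 FC -0.43, SE 0.67, adjusted p = 0.853). For MKI67 siCtrl replicate 2 lay just under the siASAP1 range, and for TOP2A siCtrl replicate 3 lay below it, with the other siCtrl libraries above in both genes.

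In all, 17 of the 53 members (and 0 in the other direction) had every siASAP1 library below every siCtrl library in SUM149PT cells, where 8.41% of all probes did so and 8.87% were separated the other way. Without siCtrl replicate 2, 17 of 51 members tested fell, 2 rose and 3 had an adjusted p under 0.05 (limma), 11 of the 17 being among the 12 above, and 8.94% of all probes fell and 14.4% rose. Of all 9953 probes tested in that fit, 107 had an adjusted p under 0.05. The 2 members that rose were ANAPC7 and the checkpoint gene BUB3. With any other SUM149PT library left out, 9 members fell, beside 1.94% to 6.20% of all probes. With all 18 libraries in a single fit 17 members fell and 2 rose (7.52% and 7.96% of all probes). With the replicate number as a block 3 fell (1.55%), and with a correction for transcript GC content 14 fell (5.09%).

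Without siCtrl replicate 2, the Log2 FC was -2.03 for CENPF, -2.70 for CENPM, -1.12 for CENPN, -1.32 for CENPH and -2.68 for SPC24. It was -1.64 for NUSAP1, -1.38 for PRC1, -1.51 for CCNA2, -1.63 for AURKB, -1.24 for TRIP13 and -1.15 for ANAPC5, and KIF4A (-1.59) no longer passed the limits. These 12 genes kept their sign. CDK1 turned from -0.32 to 1.42 (SE 0.74) and CCNB1 from -1.14 to 0.10 (SE 0.58), and neither passed with or without the library. The groups then did not overlap for 24 of 51 members that were lower and 6 that were higher, beside 21.4% and 23.3% of all probes. A group of 2 siCtrl libraries separates more readily, and the part of this in the larger shares was not tested.

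**Figure D2:**
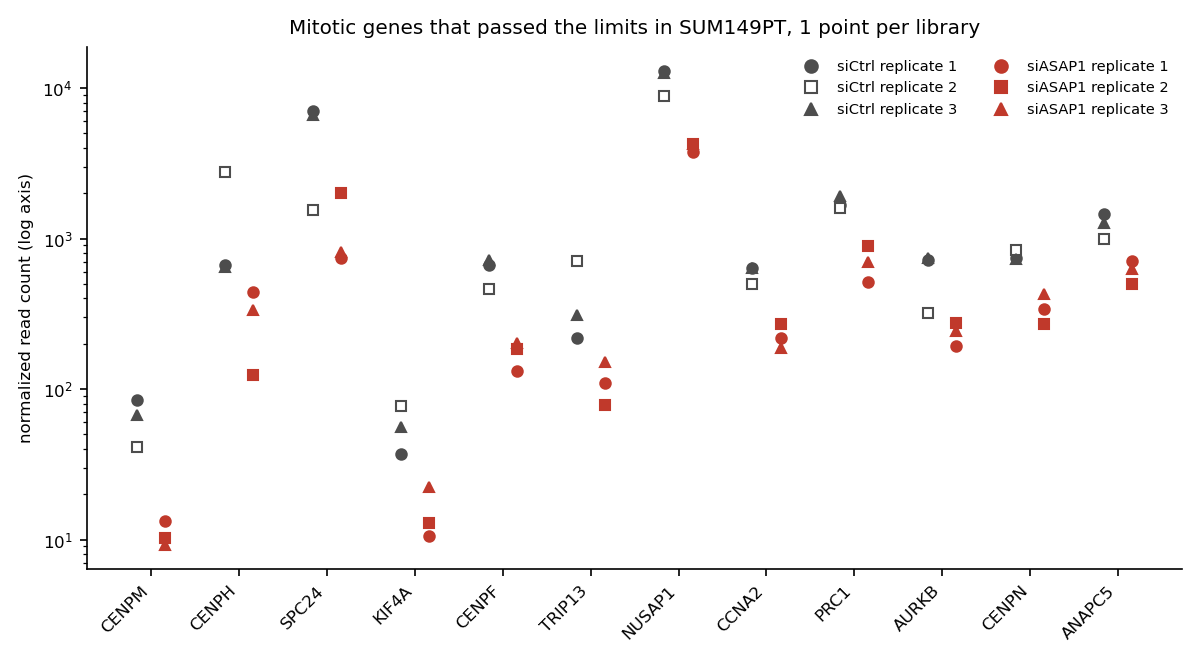
Normalized read counts (log axis) of the 12 member probes that fell in SUM149PT cells, 1 point per library, ordered by Log2 FC from -2.41 (CENPM) to -1.01 (ANAPC5). Grey symbols are siCtrl and red symbols siASAP1, symbol shape gives the replicate, and the open square is siCtrl replicate 2, which lies inside the siASAP1 range for SPC24 and above the other siCtrl libraries for CENPH.

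The promoters of these genes are known for the cell-cycle homology region (CHR), bound by the DREAM and MuvB complexes, and for CCAAT boxes, bound by NF-Y, which together time transcription to the end of the cell cycle. Promoter windows from RefSeq (GRCh38.p14, 250 bases before to 50 after a start site) were found for 53 of the 60 genes, and 7 members had none in the table. A CHR, spelled TTTGAA or TTCGAA on either strand (so also TTCAAA), was in a window of 34 of the 53 genes (64.2%) against 19.5% of all 27305 genes in the table. A CCAAT on either strand (so also ATTGG) was in 38 of them (71.7%) against 39.7%, and both motifs were in 25 (47.2%) against 7.85%. By role, 10 of 12 spindle and cytokinesis genes held a CHR, as did 7 of 10 cyclin and kinase genes, 6 of 10 kinetochore genes and 4 of 5 checkpoint genes, but 3 of 10 APC/C core genes, of which 0 held both motifs. Stretches before the start site, cut where an exon begins, were extracted for 14 member genes, and a CHR was in the stretches of 5. Those 5 are shown beside 4 whose stretches show none, the called genes CENPF, CCNA2 and SPC24 and ANAPC5, which passed the test over all lines, and the 9 were picked for their motifs and calls. They do not stand for all members. They run 5′ to 3′ on the gene's strand, with CHR and CCAAT matches in capitals, and stop where GENCODE release 29 places an exon. The stretches of CCNA2, ANAPC5 and SPC24 thus end 50, 51 and 26 bases before the start site. A CHR nearer to the start would not be shown there, so these genes are not shown to lack one. The ANAPC5 start lies inside the gene span that GENCODE gives below.
CDK1, chr10:60778378-60778453, plus strand: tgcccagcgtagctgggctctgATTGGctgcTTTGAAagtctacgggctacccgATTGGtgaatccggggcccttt
MKI67, chr10:128126424-128126523, minus strand: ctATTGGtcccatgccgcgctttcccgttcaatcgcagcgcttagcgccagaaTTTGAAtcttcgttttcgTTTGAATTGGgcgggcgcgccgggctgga
KIF11, chr10:92593030-92593129, plus strand: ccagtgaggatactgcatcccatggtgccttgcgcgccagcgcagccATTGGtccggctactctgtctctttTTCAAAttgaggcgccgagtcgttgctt
KIF4A, chrX:70290004-70290089, plus strand: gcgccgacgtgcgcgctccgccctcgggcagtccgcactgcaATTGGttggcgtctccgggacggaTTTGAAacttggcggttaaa
CDC20, chr1:43358881-43358954, plus strand: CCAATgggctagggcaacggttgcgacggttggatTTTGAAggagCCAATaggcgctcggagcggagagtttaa
CENPF, chr1:214603095-214603194, plus strand: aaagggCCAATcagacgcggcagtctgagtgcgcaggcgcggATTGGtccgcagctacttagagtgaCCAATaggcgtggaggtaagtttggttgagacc
CCNA2, chr4:121823934-121823983, minus strand: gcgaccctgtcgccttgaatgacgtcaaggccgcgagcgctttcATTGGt
SPC24, chr19:11155809-11155882, minus strand: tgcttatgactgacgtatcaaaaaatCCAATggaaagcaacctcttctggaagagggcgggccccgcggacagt
ANAPC5, chr12:121352463-121352511, minus strand: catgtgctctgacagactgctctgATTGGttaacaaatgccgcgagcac
CDK1, MKI67, KIF11, KIF4A and CDC20 show a CHR within these stretches, MKI67 with 2 of them and the second overlapping a CCAAT on the other strand, whereas CENPF shows 3 CCAAT matches and CCNA2, SPC24 and ANAPC5 a single CCAAT each. A match is a run of letters and not a measured binding site. In SUM149PT cells the 31 tested probes of genes with a CHR had a median Log2 FC of -0.97, with 6 that fell, and the 16 of genes whose window lacks the letters had a median of -0.93, with 4 that fell, so that both groups of members had nearly the same median.

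In BT549 cells the mitotic genes as a group stayed near the background. Of 52 member probes tested, 2 fell, ANAPC5 and CENPH, and 1 rose, UBE2S, while 3.69% of all 9666 probes fell and 3.28% rose. The median Log2 FC of the members was -0.18 (all probes 0.00), and 0 members had an adjusted p under 0.05 (limma, smallest 0.557). At an unadjusted p under 0.05 there were 3 members, beside 754 of all 9666 probes. With the correction for transcript GC content the median of the members changed sign, to 0.04. ANAPC5 read 708, 629 and 574 after siASAP1 and 1878, 1072 and 1167 after siCtrl, with no overlap between groups (Log2 FC -1.07, SE 0.36, adjusted p = 0.557). CENPH read 2062, 866 and 437 against 2622, 1776 and 1826, and siASAP1 replicate 1 lay within the siCtrl range (Log2 FC -1.15, SE 0.52, adjusted p = 0.639). UBE2S, an E2 enzyme that extends ubiquitin chains for the APC/C, read 34.7, 131 and 209.9 against 38.7, 31.4 and 35.8, with siASAP1 replicate 1 again at the siCtrl level (Log2 FC 1.46, SE 0.66, adjusted p = 0.639). Groups did not overlap for 2 members that were lower (ANAPC5 and KIF18A) and for 0 that were higher, against 6.51% and 7.35% of all probes.

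In several landmark genes of BT549 cells siASAP1 replicate 1 stood apart from the other siASAP1 libraries. CDK1 read 949, 68.9 and 44.7 after siASAP1 and 548, 481 and 469 after siCtrl, so that siASAP1 replicate 1 was the highest of the 6 libraries and the other siASAP1 libraries were the lowest (Log2 FC -1.79, SE 0.92, adjusted p = 0.647). CCNB1 read 784, 192 and 109.5 against 498, 534 and 431 (Log2 FC -0.93, SE 0.63, adjusted p = 0.688), and KIF11 read 3868, 1396 and 1615 against 3353, 3622 and 3677 (Log2 FC -0.78, SE 0.41, adjusted p = 0.647), both again with siASAP1 replicate 1 as the highest of the 6. MKI67 had the opposite sign, with 551, 1084 and 1966 against 368, 1068 and 791 (Log2 FC 0.64, SE 0.54, adjusted p = 0.716). Without siASAP1 replicate 1, 13 of 52 members fell, 2 rose and 6 had an adjusted p under 0.05, and 13.2% of all probes fell and 9.28% rose. Of all 9658 probes tested in that fit, 544 had an adjusted p under 0.05 (limma). With each other BT549 library left out, 0 or 1 member fell and 0 rose, beside 2.09% to 2.74% of all probes that fell. The deviations of siASAP1 replicate 1 had the r of -0.70 with transcript GC content given above.

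In Hs578T cells 2 of 51 member probes fell, CENPH and MAD2L1, and 0 rose, with 1.44% of all 9500 probes falling and 1.34% rising. The median Log2 FC of the members was -0.37 (all probes 0.01), and 40 of the 51 (78.4%) were negative against 49.2% of all probes. No member had an adjusted p under 0.05 (limma, smallest 0.915), and 3 had an unadjusted p under 0.05, beside 502 of all 9500 probes. CENPH read 737, 1971 and 522 after siASAP1 and 2857, 3837 and 1176 after siCtrl, with replicate 2 of siASAP1 inside the siCtrl range (Log2 FC -1.36, SE 0.54, adjusted p = 0.923). Within each replicate number the siASAP1 library was the lower, and with that number as a block CENPH had an adjusted p of 0.022 (limma). By their deviations over all probes, the same-numbered libraries of replicates 2 and 3 of this line were each other's best match. Those of replicate 1 were not, and the numbers are not known to pair the libraries. MAD2L1, which encodes the checkpoint protein MAD2, read 23.8, 50.3 and 12.8 against 125, 65.3 and 39.4, with a small overlap (Log2 FC -1.42, SE 0.62, adjusted p = 0.923). CCNB2, which encodes cyclin B2, had the smallest p, with 326, 328 and 194 against 571, 500.2 and 450.2 and no overlap, but missed the limit on size (Log2 FC -0.87, SE 0.31, adjusted p = 0.915). Groups did not overlap for 4 tested members that were lower (CCNB2, KIF11, KIF15 and ANAPC4) and for 1 that was higher, the APC/C core gene CDC16, against 5.78% and 6.31% of all probes. CDC16 read 959, 1214 and 836 after siASAP1 and 716, 782 and 629.5 after siCtrl (Log2 FC 0.49, SE 0.26, adjusted p = 0.923). CDK1 read 590.4, 1038 and 262 against 941, 1279 and 125, with siCtrl replicate 3 the lowest of the 6 (Log2 FC 0.03, SE 0.81, adjusted p = 0.997). Without siCtrl replicate 3, 5 of 51 members fell, with 3.37% of all probes falling. Without siASAP1 replicate 2, 4 of 52 fell and 1 rose (3.09% and 1.88% of all probes). Without any other Hs578T library 0 or 1 fell, beside 0.915% to 1.22% of all probes.

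**Figure D3:**
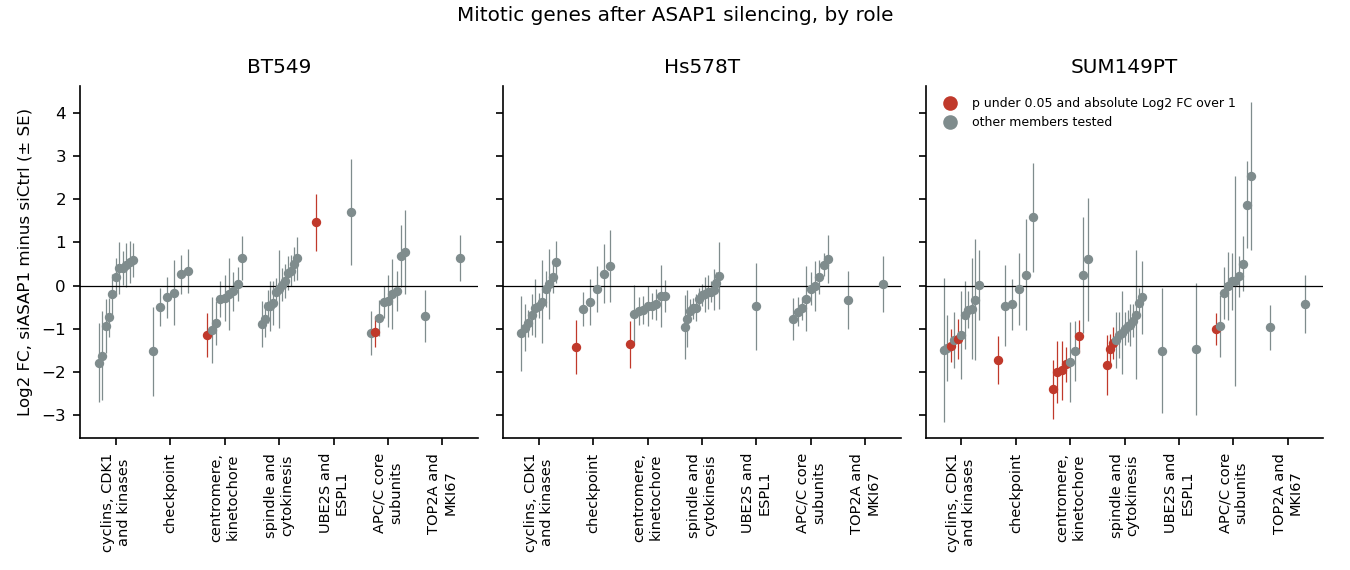
Log2 FC (siASAP1 minus siCtrl) with its SE for every member probe tested in BT549, Hs578T and SUM149PT cells, arranged by role and, within a role, by size. Red points passed both limits, and the 12 red points of SUM149PT cells lie below 0 and include 5 of the kinetochore group.

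In a fit of all 18 libraries that allowed each cell line its own level, the shared effect of siASAP1 passed the adjusted threshold for a single member, ANAPC5. The threshold here is an adjusted p under 0.05, which 1.06% of all 10475 probes passed as lower and 0.678% as higher. ANAPC5 lies at chr12:121308245-121399896 on the minus strand of GRCh38 (GENCODE release 29). Besides the SUM149PT and BT549 values above, it read 1697, 2359 and 1284 after siASAP1 and 2974, 3519.9 and 1726 after siCtrl in Hs578T cells. All 9 siASAP1 libraries were below the mean log2 value of siCtrl in their line, the measure used for such counts here (Log2 FC -0.89, SE 0.19, adjusted p = 0.0159). The adjusted p lay between 0.00718 and 0.0448 under 27 other settings and left-out libraries. The second ANAPC5 probe was read at a mean of 12.85 normalized counts and had a Log2 FC of -0.28 (SE 0.59, adjusted p = 0.87), so that the drop rests on 1 probe of the gene. CENPH (chr5:69189548-69210357, plus strand) was next in order of p and missed the threshold (Log2 FC -1.50, SE 0.38, adjusted p = 0.051), with 8 of 9 siASAP1 libraries below the mean log2 value of siCtrl in their line. It passed under 7 of 27 other settings, and its adjusted p ranged from 0.0117 to 0.102 over the 27.

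The next members in order of p were NUSAP1 (Log2 FC -0.73, SE 0.20, adjusted p = 0.0649), CENPN (Log2 FC -0.69, SE 0.20, adjusted p = 0.0863), CCNB2 (Log2 FC -0.96, SE 0.28, adjusted p = 0.0867) and KIF11 (Log2 FC -0.82, SE 0.25, adjusted p = 0.0945), each lower in 8 of 9 siASAP1 libraries. TRIP13 (Log2 FC -0.92, SE 0.29, adjusted p = 0.111) and KIF4A (Log2 FC -1.0006, SE 0.34, adjusted p = 0.137) were lower in 9 of 9, CCNA2 (Log2 FC -0.69, SE 0.23, adjusted p = 0.141) in 8 of 9 and CENPF (Log2 FC -0.76, SE 0.29, adjusted p = 0.198) in 7 of 9. None of these 8 passed the adjusted threshold. In all, 13 of the 52 members had an unadjusted p under 0.05, each of them lower, beside 1660 of all 10475 probes in either direction. A negative Log2 FC was found for 44 of the 52, against 48.3% of all probes. The median was -0.41 over the members and 0.02 over all probes. By role the median was -0.76 for the kinetochore, with 6 of 9 probes at an unadjusted p under 0.05, -0.47 for cyclins and kinases, -0.42 for spindle and cytokinesis, -0.24 for the APC/C core and 0.00 for the checkpoint. Landmarks that showed no shift beyond their error included AURKA (Log2 FC 0.02, SE 0.22), BUB1 (0.15, SE 0.41), TPX2 (-0.09, SE 0.30) and MKI67 (-0.22, SE 0.40). Those with larger but uncertain values included CCNB1 (-0.86, SE 0.51), CDK1 (-0.69, SE 0.73), PLK1 (-0.29, SE 0.36), MAD2L1 (-1.14, SE 0.56) and TOP2A (-0.37, SE 0.41).

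**Figure D4:**
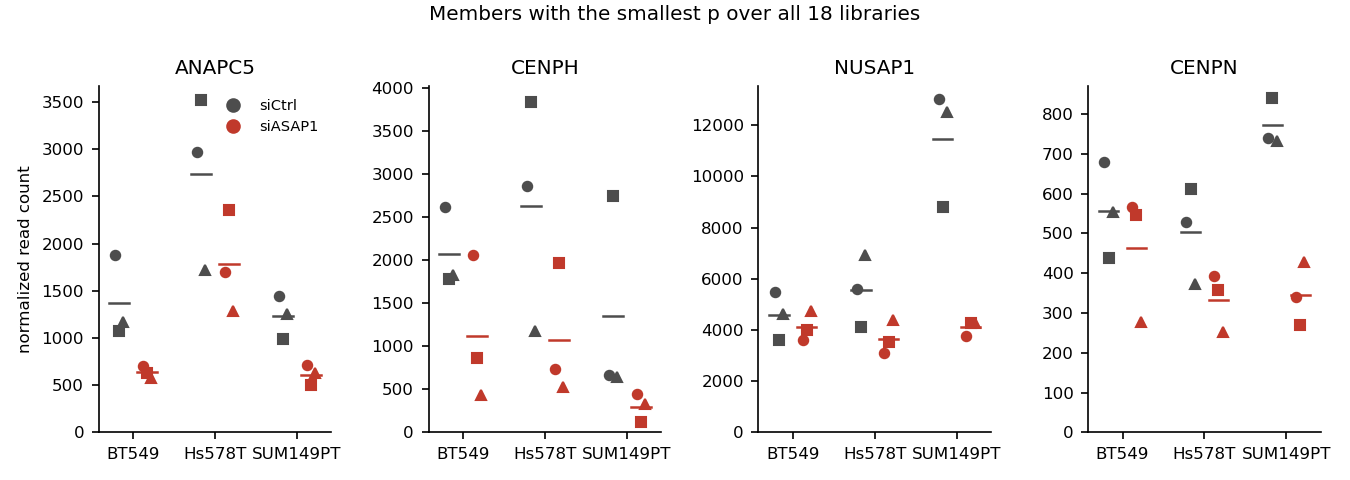
Normalized read counts of ANAPC5, CENPH, NUSAP1 and CENPN, the members with the smallest p over the 18 libraries, in each library of the 3 lines. Grey is siCtrl, red is siASAP1, symbol shape gives the replicate and the bar is the group mean. ANAPC5 values after siASAP1 are lower in BT549 (574 to 708) and SUM149PT cells (499.97 to 709), where they do not overlap siCtrl, and overlap it in Hs578T cells.

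A difference between the lines in the response to siASAP1 was not shown for any member. The interaction test gave 0 of 52 members an adjusted p under 0.05 (limma; smallest 0.507), with 0.00955% of all probes passing. At an unadjusted p under 0.05 there were 6 members, PRC1, NUSAP1, CENPF, AURKB, KIF15 and SPC25, beside 652 of all 10475 probes. For AURKB the Log2 FC was 0.60 for BT549, -0.08 for Hs578T and -1.23 for SUM149PT cells (interaction, adjusted p = 0.641). PRC1 had 0.35, -0.15 and -1.33 (interaction, adjusted p = 0.507). In simulated data this test recovered 28% of probes given a log2 change of 3 in the SUM149PT siASAP1 libraries, so it could miss large differences. The larger number of members that fell in SUM149PT cells is therefore not shown to set that line apart, and a response shared by the lines is not shown either.

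In cells that received siCtrl, the lines differed in few mitotic genes. Of 52 members, 0 differed between BT549 and Hs578T cells at an adjusted p under 0.05 (limma, smallest 0.0526), while 7.58% of all probes were lower in BT549 cells and 6.28% higher. At an unadjusted p under 0.05 there were 4 members, beside 2660 of all 10255 probes. Between SUM149PT and BT549 cells 2 members were lower in SUM149PT and 3 higher, with 8.8% and 9.4% of all probes. Between SUM149PT and Hs578T cells 2 were lower in SUM149PT and 2 higher, with 10.6% and 9.68% of all probes. These comparisons share libraries, and the values are given side by side.

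CENPI, a subunit of the constitutive centromere network at chrX:101098218-101163681, had the largest difference of those that passed. It read 2598, 6078 and 4919 in BT549, 1505, 1012 and 838 in Hs578T and 25.7, 579 and 16 in SUM149PT siCtrl cells. All SUM149PT siCtrl libraries lay below those of the other lines, replicate 2 least so. CENPI was lower in SUM149PT than in BT549 cells (log2 difference -6.06, SE 1.09, adjusted p = 0.00315) and than in Hs578T cells (-4.08, SE 1.09, adjusted p = 0.0248). Without SUM149PT siCtrl replicate 2 these were -7.65 and -5.67. The difference from Hs578T was no longer called without SUM149PT siCtrl replicate 1 (-3.45) or 3 (-3.12) or without Hs578T siCtrl replicate 1 (-3.85), 2 (-4.13) or 3 (-4.27), with adjusted p from 0.0513 to 0.0925 (limma). After siASAP1 the SUM149PT libraries read 230.2, 21.8 and 176, all below the lowest BT549 and Hs578T libraries of either treatment. ANLN, an actin-binding protein of the cleavage furrow, read 12152, 7017 and 10189.9 in BT549, 17486, 13995 and 9820.5 in Hs578T and 3671, 3652 and 2739.8 in SUM149PT cells. The SUM149PT values formed a separate low group (log2 difference -1.52 from BT549, adjusted p = 0.0122; -2.01 from Hs578T, adjusted p = 0.00232). PRC1 read 427, 465 and 639 in BT549, 586, 333 and 912 in Hs578T and 1676, 1606 and 1919.8 in SUM149PT cells, here with SUM149PT above both lines (log2 difference 1.78, adjusted p = 0.00968, and 1.62, adjusted p = 0.0153). NUSAP1 read 5500.3, 3608 and 4632 in BT549, 5609.8, 4102 and 6920.1 in Hs578T and 13029, 8812 and 12504 in SUM149PT cells, higher in SUM149PT than in BT549 (1.32, adjusted p = 0.0203) while the difference from Hs578T missed the threshold (1.06, adjusted p = 0.0501).

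ANAPC11, the RING subunit of the APC/C, read 32.4, 11.3 and 17.5 in BT549, 60.8, 55.5 and 79.8 in Hs578T and 167, 40.1 and 187 in SUM149PT cells. It was higher in SUM149PT than in BT549 cells (log2 difference 2.47, adjusted p = 0.0307), with replicate 2 the lowest of SUM149PT, and was 3.17 without that library. The call was lost under 6 of 19 other settings, with adjusted p from 0.0527 to 0.121 (limma). These were quantile normalization and leaving out SUM149PT siCtrl replicate 1 (2.16) or 3 (2.08), BT549 siCtrl replicate 2 (2.13) or 3 (2.43) or Hs578T siCtrl replicate 1 (2.47). AURKA read 176, 263 and 289.7 in BT549, 122, 70.2 and 109 in Hs578T and 269, 333 and 288 in SUM149PT cells. It was higher in SUM149PT than in Hs578T cells (1.58, adjusted p = 0.0146), while BT549 and SUM149PT cells did not differ beyond their spread (0.31, adjusted p = 0.638). Leaving out single libraries also ended calls of ANLN, NUSAP1, PRC1 and AURKA. ANLN against BT549 was lost without BT549 or SUM149PT siCtrl replicate 3, and NUSAP1 without BT549 siCtrl replicate 2 or 3 or SUM149PT siCtrl replicate 1 or 3 (differences of -1.47 and -1.38 for ANLN and 1.16 to 1.34 for NUSAP1), and both were lost with the GC correction (-1.23 and 1.57). Against Hs578T, PRC1 was lost without Hs578T siCtrl replicate 1 or 2 or SUM149PT siCtrl replicate 3 (1.24 to 1.65) and AURKA without Hs578T siCtrl replicate 2 (1.34). Without SUM149PT siCtrl replicate 2, 17 members were lower and 6 higher in SUM149PT than in BT549 cells, and 8 lower and 6 higher than in Hs578T cells. Of all probes, 19.0% were then lower and 15.2% higher than in BT549 cells, and 18.1% and 13.6% than in Hs578T cells. Without it 6 members were also higher in BT549 than in Hs578T cells (10.5% of all probes), since the 9 siCtrl libraries share 1 estimate of the spread.

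**Figure D5:**
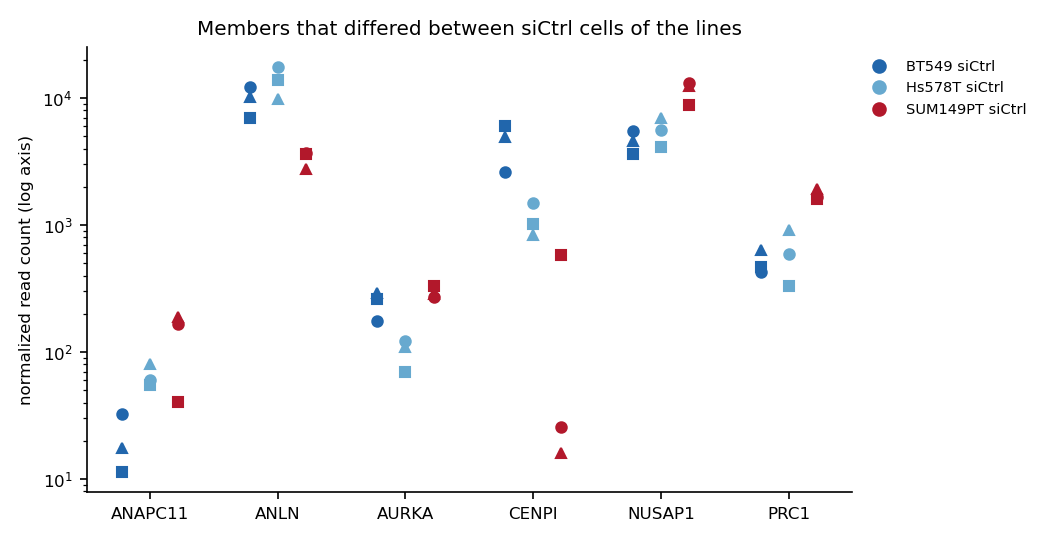
Normalized read counts (log axis) of the 6 members that differed between siCtrl cells of the lines in at least 1 comparison, 1 point per library, colored by line, with symbol shape for the replicate. CENPI spans 15.99 to 6078, and its highest SUM149PT point is replicate 2 (579).

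Several members were too low to test. The probes for CDC20, UBE2C, PTTG1, CENPA, CENPE, NDC80 and MAD1L1, a second CENPM probe and a second ANAPC2 probe had a mean normalized count under 10 in each comparison. CDC20, the coactivator that the checkpoint holds back, had reads in 2 of 18 libraries, and PTTG1, which encodes securin, in 1. UBE2C, the E2 enzyme that starts ubiquitin chains for the APC/C, had reads in 9 libraries and at most 21.5 normalized counts. CENPA, the centromeric histone, had reads in 5 and CENPE, a kinetochore motor, in 2, and NDC80 had reads in 8. The core subunits ANAPC10 and CDC27 were tested in SUM149PT cells only, where they had a Log2 FC of 2.55 (SE 1.71) and 0.10 (SE 2.43), ESPL1, which encodes separase, was not tested in Hs578T cells, and the second ANAPC5 probe was not tested in SUM149PT cells. A change of these mRNAs was not detectable with these probes at this depth.

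The members that encode kinases were viewed as a group because of the description of siCtrl. CDK1, PLK1, AURKA, AURKB, BUB1, BUB1B and TTK gave 0 probes that fell or rose in BT549 and in Hs578T cells, 1 that fell in SUM149PT cells (AURKB) and 0 over the 18 libraries (limma, adjusted p; 0 at an unadjusted p under 0.05). Of all probes, 3.69%, 1.44% and 4.29% fell in the 3 lines, and 1.06% passed as lower over the 18 libraries. The median Log2 FC of these kinase genes was 0.34, 0.03 and -0.43 in the 3 lines. Without SUM149PT siCtrl replicate 2, CDK1 (1.42), BUB1 (0.70) and TTK (1.63) were positive in SUM149PT cells. PLK1 (-1.25), AURKA (-0.47), AURKB (-1.63) and BUB1B (-0.32) were negative, and AURKB alone fell. The study's methods state that this pool does not significantly alter the expression of any single kinase gene. The siASAP1 cells did not receive the kinase pool, but an effect of the pool and one of ASAP1 silencing cannot be told apart without untransfected cells, which were not analyzed here.

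Further mitotic genes were also lower in SUM149PT cells. Of 96 further genes of mitotic entry, the kinetochore, the spindle, condensin and cohesin and the factors of the mitotic program (103 probes), 21 of 88 probes tested fell in SUM149PT cells and 0 rose, a share of 23.9% with a median Log2 FC of -0.68. Of all probes in SUM149PT cells 4.29% fell and 5.27% rose, with a median of 0.09. Without siCtrl replicate 2, 24 of 85 fell (28.2%) and 1 rose, beside 8.94% and 14.4% of all probes. PBK, a mitotic protein kinase, fell from a mean of 2519.7 to 645 (Log2 FC -1.89, SE 0.43, adjusted p = 0.334). DLGAP5, a spindle protein that acts with AURKA, fell from 2359.6 to 792 (Log2 FC -1.53, SE 0.37, adjusted p = 0.334), and MYBL2, which encodes the B-MYB factor of the mitotic program, from 449 to 119 (Log2 FC -1.85, SE 0.72, adjusted p = 0.458). DLGAP5 and MYBL2 were chosen after their values were seen. In BT549 cells 0 of 89 such probes fell or rose, beside 3.69% and 3.28% of all probes. At an unadjusted p under 0.05 there was 1, beside 754 of all 9666 probes. In Hs578T cells 1 of 85 fell, beside 1.44% of all probes. It was RACGAP1, which organizes the central spindle (Log2 FC -2.07, SE 0.50, adjusted p = 0.711). Over the 18 libraries PBK alone passed the adjusted threshold (Log2 FC -0.99, SE 0.25, adjusted p = 0.0446), which 1.06% of all probes passed as lower. PBK missed it under 21 of 27 other settings (adjusted p from 0.0172 to 0.155).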

How the data were processed

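RNA of 18 libraries (3 TNBC lines, siASAP1 or siCtrl, 3 libraries each) was read by TempO-Seq. The authors deposited log2 values of read counts that were divided by a size factor, with 1 added. The submitters' processing notes name bcl2fastq, Bowtie and DESeq2, with versions, aligner settings and genome build not given in the sources used here. Undoing the log gave whole multiples of 1 read for 100% of values above 0 (tolerance 0.05 of a read), and library totals of 4.63 to 12.5 M reads were computed from these. Size factors assume that most probes do not change.

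Differences were tested on the deposited log2 values with limma 3.58.1 (R 4.3.3; lmFit, eBayes with trend) over all probes whose mean in the compared libraries reached 10 normalized counts, with Benjamini-Hochberg adjustment. Within a line, the study's limits made the call, an absolute Log2 FC over 1 together with p under 0.05 before adjustment. The effect over all lines (cell line as covariate), the interaction and the siCtrl lines were called at an adjusted p under 0.05. Single values were compared by exact permutation tests. Replicates are described as biological triplicates, so p-values measure the spread between these libraries. Same-numbered libraries did not deviate together in every line, so replicate numbers were not used as pairs. A separate count model was not run. Scripts were tested on simulated data.

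The members and lists were chosen with earlier results of these data known. Genes named with values were ASAP1, landmarks of each role, members that were not tested, the 10 members with the smallest p over all lines, up to 5 called per direction in each line, up to 3 per direction in each siCtrl comparison, members that passed the interaction test, and up to 3 other mitotic genes per direction over all lines. The remaining members of the 12 in SUM149PT cells, and CENPK, NUF2, SPC25, KIF15, KIF23, KIF18A, KIF20A, KIF2C, BUB3, ANAPC4, ANAPC7 and CDC16, were chosen after their values were seen. Alternatives were other scalings, filters and pseudocounts, limma-voom on the recovered reads, 1 fit for all libraries, the replicate number as a block and each library left out, and, chosen after seeing the data, a correction for transcript GC content. Promoter sequences came from RefSeq and gene positions from GENCODE release 29. Figures were drawn with matplotlib 3.10.9.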

Additional observations from a re-analysis of the deposited data

How the results depend on the processing

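Same-numbered libraries were not matched in every line: correlations of deviations between same-numbered siASAP1 and siCtrl libraries were -0.19, -0.39 and 0.14 in BT549, 0.0998, 0.42 and 0.41 in Hs578T, and -0.33, -0.66 and -0.35 in SUM149PT cells. The 3 of 9 same-numbered pairs that were each other's best match were replicate 3 of BT549 and replicates 2 and 3 of Hs578T cells. With the replicate number as a block, members that fell numbered 3 in SUM149PT cells (7 with the GC correction as well), beside 1.55% (2.10%) of all probes. Members that rose in BT549 cells numbered 0 (0), beside 2.74% (2.63%) of all probes. Members with an adjusted p under 0.05 (limma) in Hs578T cells numbered 1 (1), which was CENPH. Under the block, members higher numbered 1 in BT549 against Hs578T siCtrl cells (3 with GC) and 4 in SUM149PT against Hs578T (5), with 4 lower there with GC.

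Members that fell in BT549 cells (2) numbered 1 with library totals, quantile scaling, a minimum mean of 50 or the GC correction and 4 with no filter, and the 1 that rose numbered 0 with quantile scaling, no filter, a minimum of 50, voom, 1 fit of all 18 libraries or the GC correction. In Hs578T cells (2) 1 fell with library totals, a minimum of 50 or voom and 0 with all 18 in 1 fit. Under the settings just named, 3.09% to 4.15% of all probes fell and 2.71% to 3.19% rose in BT549 cells, and 0.882% to 1.23% fell in Hs578T cells. The BT549 median (-0.18) was 0.04 with the GC correction. The Hs578T median (-0.37) was -0.26 with library totals, -0.24 at a minimum of 50, -0.31 with a pseudocount of 10, -0.41 with voom, and -0.33 with the GC correction, with or without the block. The SUM149PT median (-0.93) was -0.72 with library totals and -0.65 with a pseudocount of 10, and all 18 in 1 fit gave 2 that rose (7.96% of all probes) and 3 with an adjusted p under 0.05 (limma). Over all lines (1 lower), 3 passed as lower at a minimum of 50 (2.15% of all probes), 2 with a pseudocount of 10 (1.18%), 4 with GC correction (1.24%) and 2 with GC and block (0.477%). In siCtrl cells, BT549 against Hs578T (0 and 0) gave 1 higher with library totals (7.52% of all probes) and 2 higher and 1 lower with all 18 in 1 fit (8.04% and 9.26%). SUM149PT against Hs578T (2 and 2) gave 4 higher with a pseudocount of 10 (10.1% of all probes), 4 higher and 4 lower with all 18 (11.8% and 12.3%), and 4 lower with the GC correction (11.3%).

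Leaving out single libraries, BT549 cells gave 0 to 13 lower, 0 to 2 higher and 0 to 6 adjusted, with medians of -0.21 to -0.09, the largest counts being those without siASAP1 replicate 1. The share of all probes moved too, from 2.09% to 13.2% lower and from 1.36% to 9.28% higher. Hs578T cells gave 0 to 5 lower and 0 to 1 higher, with medians of -0.53 to -0.30, beside 0.915% to 3.37% and 0.695% to 3.30% of all probes. SUM149PT cells gave 9 to 17 lower, 0 to 2 higher and 0 to 3 adjusted, with medians of -0.98 to -0.76, the largest counts being those without siCtrl replicate 2. Of all probes, 1.94% to 8.94% were lower there and 2.29% to 14.4% higher. The effect over all lines gave 1 to 4 lower (median -0.48 to -0.34), most without BT549 siASAP1 replicate 1, beside 0.581% to 1.19% of all probes, and the interaction 0. BT549 against Hs578T siCtrl cells gave 0 to 1 lower and 0 to 6 higher (median -0.070 to 0.26), SUM149PT against BT549 1 to 17 lower and 1 to 6 higher (-0.67 to -0.01), and SUM149PT against Hs578T 1 to 8 lower and 0 to 6 higher (-0.27 to 0.29). In the same order, 4.95% to 11.9%, 5.80% to 19.0% and 6.55% to 18.1% of all probes were lower. Those higher were 3.29% to 10.5%, 6.57% to 15.2% and 6.71% to 13.6%. The causes were not tested. For 30 single-gene results there were 626 values under these settings. Of these, 525 kept their direction and side of the threshold, 88 lost the call, 13 gained it and 0 reversed. The 30 results were picked from these same data for their calls or small p, so that a reversal was unlikely from the start. CDK1 and CCNB1, whose sign changed in SUM149PT cells without siCtrl replicate 2, were not among them. Library totals as the scale moved the median of all probes in SUM149PT cells to 0.299. With 3 libraries a group and low probes untested, smaller changes were not detectable.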
